A study of Homo sapiens with 12 samples.

Results

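The genes described here carry out or control cholesterol and fatty acid synthesis, sterol transport within the cell and cholesterol efflux, in U937 cells given an antibody to LILRB3. They were taken by symbol from a list of sterol regulatory element-binding protein (SREBP), cholesterol, fatty acid and liver X receptor (LXR) genes, and all 40 listed symbols were found among the 27827 named genes of the 2 count tables. By role, 18 belong to sterol synthesis, 7 to fatty acid synthesis, 5 to SREBP control, 2 are LXR receptors, 5 act in uptake and intracellular sterol transport, and 3 act in efflux. The rule reads symbols only, although the list was drawn up with earlier results of these data known.

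U937 is a human pro-monocytic cell line, and LILRB3 is a myeloid cell surface receptor of the inhibitory kind. Per the labels, all 4 groups were pretreated with 50 ng/mL interferon gamma (IFNγ), which was given to raise LILRB3 expression. The groups of set 1 were a LILRB3 antagonist antibody and its nonspecific IgG control, and those of set 2 were a LILRB3 agonist antibody and a separate nonspecific IgG control, each for 72 hours and with 3 libraries. The antibody dose is written in the labels as 5 mg/mL, and that unit is kept here as written. All libraries come from 1 cell line and, per the labels, none was left without IFNγ. The column names of set 1 carry IFN, and those of set 2 do not. The labels do not say whether the 3 libraries of a group came from separate cultures. The p-values therefore measure the spread between these libraries, which may be technical.

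Cells keep their sterol content steady by a feedback loop. SREBP2, encoded by SREBF2, and SREBP1, encoded by SREBF1, are held in the endoplasmic reticulum by SCAP and the INSIG proteins when sterols are plentiful, and are released to switch on genes of sterol and fatty acid synthesis when sterols are scarce. Oxysterols made from excess cholesterol act through the LXR receptors, which switch on SREBF1 and the efflux genes ABCA1, ABCG1 and APOE. In macrophages sterol synthesis and efflux are thus usually regulated in opposite senses. Since SREBF1 is among the genes that LXR switches on, this need not hold for fatty acid synthesis.

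Because many of these genes are known to share control elements just before their start sites, the 250 bases upstream of an annotated start were searched in RefSeq (GRCh38.p14). This covered 35 of the 40 genes that matched the promoter table, and 27305 promoters in all, which include those of genes not tested here. For CYP51A1, PMVK, MVK, ACLY, SCAP and ELOVL6 that start lies within the gene span, so the window is not upstream of the whole gene. Motifs were searched on both strands. The sterol regulatory element TCACCCCAC was found in 1 of the 35 windows, that of SREBF2, against 0.348% of all promoters. The looser form TCACNCCAC, which includes it, was also found in that 1 window, against 0.868%. The inverted CCAAT box ATTGG, the letters read by nuclear factor Y, was found in 20 of 35 windows (57.1%) against 33.0% of all promoters, and in 11 of the 15 sterol synthesis windows (73.3%). The GC box GGGCGG was found in 31 of 35 (88.6%) against 42.2%, and the E-box CACGTG in 4 of 35 (11.4%) against 6.46%. The LXR direct repeat, 2 copies of AGGTCA with 4 bases between them, was found in none of the 35 and in 0.0147% of all promoters. Only these exact words were searched, so variant forms would be missed and a window with no match may still hold an element. The windows below are shown because SREBF2 holds the sterol regulatory element, HMGCS1, MSMO1 and INSIG1 had the largest rises with the agonist, and NSDHL was among the largest falls with the antagonist and has overlapping boxes. Capitals mark TCACCCCAC, ATTGG or its reverse complement CCAAT, and CACGTG; each runs 5′ to 3′ and ends at the base before the start.
SREBF2 (chr22:41832855-41833104, plus strand): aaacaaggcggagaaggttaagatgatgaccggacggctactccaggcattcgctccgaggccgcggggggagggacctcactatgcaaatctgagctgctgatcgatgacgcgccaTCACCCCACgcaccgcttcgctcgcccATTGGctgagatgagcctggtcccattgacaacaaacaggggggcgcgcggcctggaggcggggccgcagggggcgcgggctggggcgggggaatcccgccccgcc
HMGCS1 (chr5:43313413-43313662, minus strand): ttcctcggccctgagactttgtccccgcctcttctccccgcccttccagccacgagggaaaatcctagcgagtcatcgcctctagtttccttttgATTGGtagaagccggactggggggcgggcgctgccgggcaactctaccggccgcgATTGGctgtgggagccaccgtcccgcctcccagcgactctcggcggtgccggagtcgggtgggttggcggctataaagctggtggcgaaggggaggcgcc
MSMO1 (chr4:165327419-165327668, plus strand): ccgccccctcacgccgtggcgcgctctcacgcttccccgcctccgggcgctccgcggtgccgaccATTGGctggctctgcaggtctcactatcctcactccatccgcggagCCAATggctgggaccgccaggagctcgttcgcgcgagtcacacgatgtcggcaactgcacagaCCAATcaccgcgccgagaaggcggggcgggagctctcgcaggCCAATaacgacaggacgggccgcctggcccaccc
INSIG1 (chr7:155297628-155297877, plus strand): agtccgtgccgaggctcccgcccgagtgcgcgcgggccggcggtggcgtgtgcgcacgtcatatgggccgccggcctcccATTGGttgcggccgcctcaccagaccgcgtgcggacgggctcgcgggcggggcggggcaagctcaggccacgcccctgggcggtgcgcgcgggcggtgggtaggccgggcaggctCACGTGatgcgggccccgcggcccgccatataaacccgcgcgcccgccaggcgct
NSDHL (chrX:152830813-152831062, plus strand): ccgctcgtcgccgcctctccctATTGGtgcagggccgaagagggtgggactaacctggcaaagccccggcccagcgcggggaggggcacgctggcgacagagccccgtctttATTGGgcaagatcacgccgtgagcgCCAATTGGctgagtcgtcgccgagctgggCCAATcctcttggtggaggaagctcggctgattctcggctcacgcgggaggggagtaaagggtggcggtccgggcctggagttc

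In SREBF2 the element began 133 bases before the start and the ATTGG box 106 bases before it. HMGCS1 had ATTGG boxes at 155 and 100 bases before the start, MSMO1 had 4 boxes and NSDHL had 5, of which 2 overlapped. INSIG1 had 1 box at 170 bases and an E-box at 55 bases before the start. These matches describe letters only, and the windows shown were picked in part for the boxes they hold. Among other genes that fell with the antagonist, PMVK, DHCR7, FADS1 and NR1H2 had no ATTGG box, whereas FDPS, EBP, NPC2 and SOAT1 had. CYP51A1, which shared the direction of MSMO1 with both antibodies, had no capitals in its window, but that window lies within the gene span and sequence further upstream was not searched.

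Set 1 libraries held between 17053190 and 18833088 counts. Set 2 listed only 904 genes, 902 of them shared with set 1, and their counts summed to between 2764479 and 3522203 per library, which is not the depth of those libraries. The listed log2 fold changes nearest to zero were -0.25 and 0.12 there, whereas 23.1% of set 1 genes lay within 0.1 of zero, so that set 2 was read as a list selected on these libraries. In set 1, the first IgG library stood apart, with a chi-square per degree of freedom of 10.4 and 18.5 against the other IgG libraries, which had 4.32 between them. The first agonist library stood apart likewise (24.9 and 26.6, against 3.74). Library numbers are column order only. Of 18 monocytic markers none was at 0 in all 6 libraries of set 1 and CTSG reached 2610 to 3270 CPM (counts scaled to a library of fixed size), but CD14 (0.169 to 0.525 CPM) and MPO (0.117 to 0.957 CPM) were nearly absent. The summed monocytic markers ran from 8260 to 9540 CPM with IgG and from 8150 to 8670 with the antagonist. The 8 T and NK markers, 2 of them at 0, summed to 336 to 357 and 289 to 292 CPM, nearly all from NKG7, and the part of this difference in the results below was not tested. B cell markers summed to 29.9 to 31.9 and 32.5 to 36.9 CPM, erythroid markers to at most 1.35 CPM and epithelial and fibroblast markers to at most 2.7 CPM, with MS4A1, HBB and EPCAM at 0.

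In set 1, 37 of the 40 genes passed the filter on low counts, and HSD17B7, ELOVL6 and ABCG1 did not. Levels in IgG cells were compared between genes as CPM per kilobase of exon, with libraries put on a common scale by TMM, edgeR's trimmed-mean method. SCD, the stearoyl-CoA desaturase, was highest at 498, ahead of INSIG1 at 236 and FDPS at 235, then DHCR7 at 188, FASN at 184 and FADS2 at 138. The lowest were TM7SF2 at 8.82 (rank 34), NR1H3 at 4.28, ACACA at 4.25 and ABCA1 at 0.0703 (rank 37), and APOE stood at 14.1 (rank 30). Thus enzymes of synthesis and the sterol sensor INSIG1 held the top ranks per length, and the efflux transporter ABCA1 the last.

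**Figure D1:**
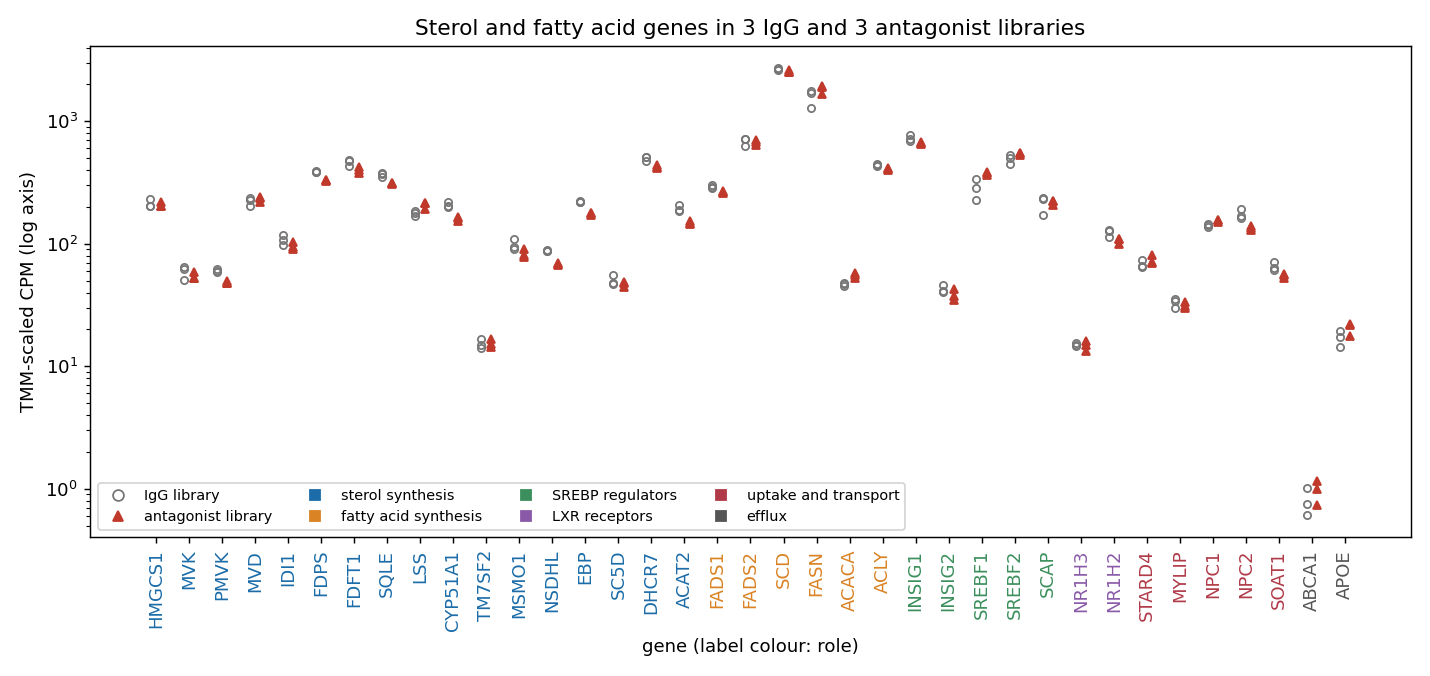
TMM-scaled CPM on a log axis of the 37 tested genes in each of 3 IgG libraries (open circles) and 3 antagonist libraries (triangles), with gene labels coloured by role. Circles and triangles do not overlap for 21 genes, as for CYP51A1 and NPC2, and overlap for others such as HMGCS1 and FASN.

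With the antagonist, sterol synthesis genes were lower as a group, SREBF1 was higher and efflux genes did not pass the test. Log2 fold changes were tested by edgeR's quasi-likelihood test with Benjamini-Hochberg adjustment over 13778 genes at 0.05. Of the 37 genes 14 fell (37.8%) and 3 rose, against 20.5% of all tested genes lower and 15.6% higher. In 21 of 37 (56.8%) the 3 antagonist libraries did not overlap the 3 IgG libraries, against 49.0% of all genes. The median log2 fold change was -0.10, beside -0.01 over all genes. By role, 10 of 17 sterol synthesis genes fell and 1 rose (median -0.22), 1 of 6 fatty acid genes fell and 1 rose (median -0.04), and 1 of 5 SREBP control genes rose. Of the 5 uptake and transport genes 2 fell, 1 of 2 LXR receptors fell, and neither of 2 efflux genes passed. Without antagonist library 1 it was 7 genes that passed and all were lower, without antagonist library 3 or IgG library 2 it was 10 genes, and without the first IgG library 19 passed, 14 of them lower. Scaled by library totals instead of TMM, 7 genes rose and 8 fell, with SREBF2, FASN, NPC1 and the efflux gene APOE added to those that rose. With a stricter filter 5 rose and 10 fell. The share of lower calls thus depends on the scaling, while the fall of 7 genes named in the next paragraphs did not.

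The early, shared part of the sterol pathway makes isoprenoid precursors from acetyl-CoA. ACAT2, the cytosolic acetoacetyl-CoA thiolase, had 207, 190 and 185 CPM with IgG and 144, 154 and 148 with the antagonist (log2 fold change -0.39 ± 0.06 SE, adjusted p = 0.000781). The groups did not overlap. Its exons share 34.8% of their length with SOD2, 45.8% with SOD2-OT1 and 12.5% with TCP1 on the opposite strand, where SOD2 (-0.36 ± 0.08) and TCP1 (-0.34 ± 0.06) also fell and SOD2-OT1 (0.39 ± 0.25, adjusted p = 0.251) did not pass, so that without strand the reads of these genes cannot be told apart there. PMVK, the phosphomevalonate kinase, had 62.5, 59.1 and 59.7 CPM with IgG and 47.5, 47.8 and 49.7 with the antagonist (-0.32 ± 0.06, adjusted p = 0.00203), again without overlap. FDPS, which makes farnesyl diphosphate, had 386, 386 and 391 CPM with IgG and 326, 334 and 329 with the antagonist (-0.23 ± 0.05, adjusted p = 0.00508), and its 3 antagonist libraries lay below all IgG libraries. An antisense gene covers 28.9% of its exon length. By contrast HMGCS1, which encodes the cytosolic HMG-CoA synthase, had 233, 205 and 202 CPM with IgG and 205, 218 and 203 with the antagonist (-0.03 ± 0.07, adjusted p = 0.757). Those groups overlapped, and an antisense gene covers 19.9% of its exon length. MVK (-0.10), MVD (0.07) and IDI1 (-0.17) did not pass either.

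Squalene is formed by FDFT1, oxidised by SQLE and closed into a ring by LSS, and these consecutive steps did not share a direction. FDFT1 had 480, 435 and 470 CPM with IgG and 380, 426 and 403 with the antagonist (-0.20 ± 0.06, adjusted p = 0.0311). SQLE had 377, 368 and 348 CPM with IgG and 308, 313 and 316 with the antagonist (-0.22 ± 0.06, adjusted p = 0.00932). For both genes the groups were separate, FDFT1 by a narrow margin. LSS, the lanosterol synthase, was the 1 sterol enzyme that rose, from 168, 184 and 180 CPM to 215, 192 and 215 (0.23 ± 0.06, adjusted p = 0.016). All 3 antagonist libraries were above the IgG libraries. The ratio of LSS to CYP51A1 reads, a pair chosen after its values were seen, needs no scaling and was 0.758, 0.916 and 0.883 with IgG and 1.30, 1.18 and 1.39 with the antagonist.

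From lanosterol onward, the enzymes that trim and rearrange the sterol ring fell in most cases. CYP51A1, the lanosterol demethylase (chromosome 7, 92112153 to 92134803, GRCh38.p14), had 221, 201 and 204 CPM with IgG and 165, 162 and 155 with the antagonist (-0.38 ± 0.06, adjusted p = 0.000775). NSDHL, a sterol dehydrogenase (chromosome X, 152831063 to 152869729), had 86.7, 88.2 and 87.5 CPM with IgG and 69.0, 67.5 and 68.1 with the antagonist (-0.36 ± 0.06, adjusted p = 0.000699). In both genes the gap between groups was wider than the range within either. EBP, the sterol isomerase, had 219, 219.9 and 222 CPM with IgG and 179, 173 and 178 with the antagonist (-0.32 ± 0.05, adjusted p = 0.000985). DHCR7, which completes cholesterol from 7-dehydrocholesterol, had 475, 515 and 513 CPM with IgG and 413, 424 and 436 with the antagonist (-0.24 ± 0.06, adjusted p = 0.00741). Neither gene's groups overlapped. MSMO1, the methylsterol monooxygenase, had 110.2, 94.8 and 91.4 CPM with IgG and 80.7, 90 and 78.1 with the antagonist (-0.25 ± 0.08, adjusted p = 0.027). Its groups nearly met, and without the first IgG library the change was -0.14 and did not pass. TM7SF2 (0.03) and SC5D (-0.10) did not pass. HSD17B7 was counted 0, 0 and 2 times with IgG and 0, 1 and 0 times with the antagonist, too few to compare (ratio 0.509, 95% counting interval 0.00862 to 9.77, exact two-sided p = 1; intervals here cover counting error only).

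Among these sterol genes ACAT2, PMVK, FDPS, CYP51A1, NSDHL and EBP, and among transport genes NPC2, passed in the same direction under all 13 alternative settings tried. The other 10 genes that passed did so under some and not under others.

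Of the 6 tested fatty acid synthesis genes 1 rose and 1 fell (16.7% each), near the 15.6% higher and 20.5% lower over all tested genes. ACACA, the acetyl-CoA carboxylase that commits carbon to fatty acids, had 48.2, 45.0 and 47.3 CPM with IgG and 55.1, 58.1 and 52.6 with the antagonist (0.24 ± 0.07, adjusted p = 0.0149). The groups were separate and the antagonist libraries higher. FASN, the fatty acid synthase, had a log2 fold change of 0.22 ± 0.12 (adjusted p = 0.170) and overlapping groups. FADS1, a polyunsaturated fatty acid desaturase, had 287, 300.1 and 293 CPM with IgG and 261, 269 and 265 with the antagonist (-0.15 ± 0.05, adjusted p = 0.04995). Its groups were separate, but it lies at the threshold and passed in only 2 of 13 alternative settings. SCD (-0.06), FADS2 (-0.03) and the citrate lyase ACLY (-0.10) did not pass, although the most abundant of them, SCD, had 2641 to 2708 CPM with IgG. ELOVL6, a fatty acid elongase, was counted 1, 4 and 1 times with IgG and 1 time in each antagonist library (ratio 0.509, interval 0.0823 to 2.38, exact two-sided p = 0.508), so that a difference was not detectable at this depth. With length and GC trends removed 3 of the 6 fell and none rose: FADS1, FADS2 (-0.17) and ACLY (-0.15), while the rise of ACACA was lost. The difference between fatty acid and sterol genes was not tested.

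Of the SREBP control genes SREBF1 alone passed. SREBF1 (chromosome 17, 17811334 to 17836986) had 229, 287 and 338 CPM with IgG and 386, 362 and 382 with the antagonist (0.40 ± 0.12, adjusted p = 0.0276). The groups were separate, but the IgG libraries spread widely, with the first, which stood apart, lowest; without that library the change was 0.30. It no longer passed without antagonist library 1 or without antagonist library 3. The table does not separate the SREBP1a and SREBP1c transcripts. SREBF2 had 449, 503 and 534 CPM with IgG and 547, 531 and 552 with the antagonist (0.13 ± 0.07, adjusted p = 0.142), and the groups overlapped. SCAP, the escort protein, had 173, 231 and 236 CPM with IgG and 224, 208 and 224 with the antagonist (0.03 ± 0.10, adjusted p = 0.830). SCAP too was lowest in the first IgG library, with the groups overlapping. INSIG1, the retention protein that is itself an SREBP target (chromosome 7, 155297878 to 155310235), had 696, 718 and 769 CPM with IgG and 672, 653 and 666 with the antagonist (-0.13 ± 0.06, adjusted p = 0.0918). Its antagonist libraries were all lower, yet the test was not passed. INSIG2 had 46.4, 40.2 and 41.2 CPM with IgG and 37.7, 42.6 and 34.9 with the antagonist (-0.15 ± 0.09, adjusted p = 0.193), with overlap.

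The LXR receptors NR1H2 (LXR beta) and NR1H3 (LXR alpha) were both expressed, NR1H2 at the higher level per length (59.1 against 4.28 CPM per kilobase). NR1H2 had 114, 127 and 129.9 CPM with IgG and 109, 99.7 and 109 with the antagonist (-0.22 ± 0.07, adjusted p = 0.0204). The groups were separate, although the call was lost in 6 of 13 alternative settings. NR1H3 had 15.4, 14.8 and 14.8 CPM with IgG and 13.3, 14.8 and 15.98 with the antagonist (-0.03 ± 0.10, adjusted p = 0.845), with overlap.

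In uptake and intracellular transport the 2 genes that fell handle cholesterol at different places. NPC2, the soluble lysosomal protein that passes lipoprotein-derived cholesterol on (chromosome 14, 74479935 to 74493512), had 194, 163 and 170 CPM with IgG and 129.6, 141 and 134 with the antagonist (-0.38 ± 0.07, adjusted p = 0.00161). SOAT1, which esterifies cholesterol for storage, had 71.4, 63.1 and 61.5 CPM with IgG and 52.8, 57.1 and 55.8 with the antagonist (-0.24 ± 0.07, adjusted p = 0.020). Both had separate groups, and without the first IgG library SOAT1 stood at -0.15 and did not pass. NPC1, the membrane partner of NPC2, had 143, 138 and 144 CPM with IgG and 155, 157 and 152 with the antagonist (0.13 ± 0.05, adjusted p = 0.0822), so that its libraries were separate in the opposite direction without passing. STARD4, a soluble sterol carrier, was at 0.11 ± 0.08 (adjusted p = 0.280), and MYLIP, an LXR-induced ubiquitin ligase for lipoprotein receptors, at -0.07 ± 0.09 (adjusted p = 0.562). STARD4 passed as higher with length and GC trends removed and without the first IgG library.

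Of the efflux genes ABCA1 and ABCG1 were scarcely counted and APOE was at a low to moderate level. ABCA1, which loads cholesterol onto lipid-poor apolipoproteins, had 0.753, 1.01 and 0.612 CPM with IgG and 0.743, 1.16 and 0.992 with the antagonist (0.29 ± 0.34, adjusted p = 0.537). ABCG1, which exports cholesterol to lipoprotein particles, was counted 7, 9 and 6 times with IgG and 2, 10 and 2 times with the antagonist (ratio 0.647, interval 0.306 to 1.32, exact two-sided p = 0.244). Both overlapped between groups, and at this depth a fall or a rise of moderate size could not be seen. APOE, a secreted cholesterol acceptor, had 14.4, 17.4 and 19.3 CPM with IgG and 21.8, 17.5 and 21.9 with the antagonist (0.26 ± 0.12, adjusted p = 0.111), and its groups overlapped. It passed as higher when scaled by library totals and when IgG library 3 was left out. Thus 11 of 23 tested sterol and fatty acid synthesis genes fell (47.8%) and 2 rose (8.7%, median -0.15), 2 of 5 uptake and transport genes fell, and none of the 2 tested efflux genes passed. None of those 5 genes encodes a lipoprotein receptor, so they do not show whether receptors for uptake changed. Over all tested genes 20.5% fell and 15.6% rose.

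**Figure D2:**
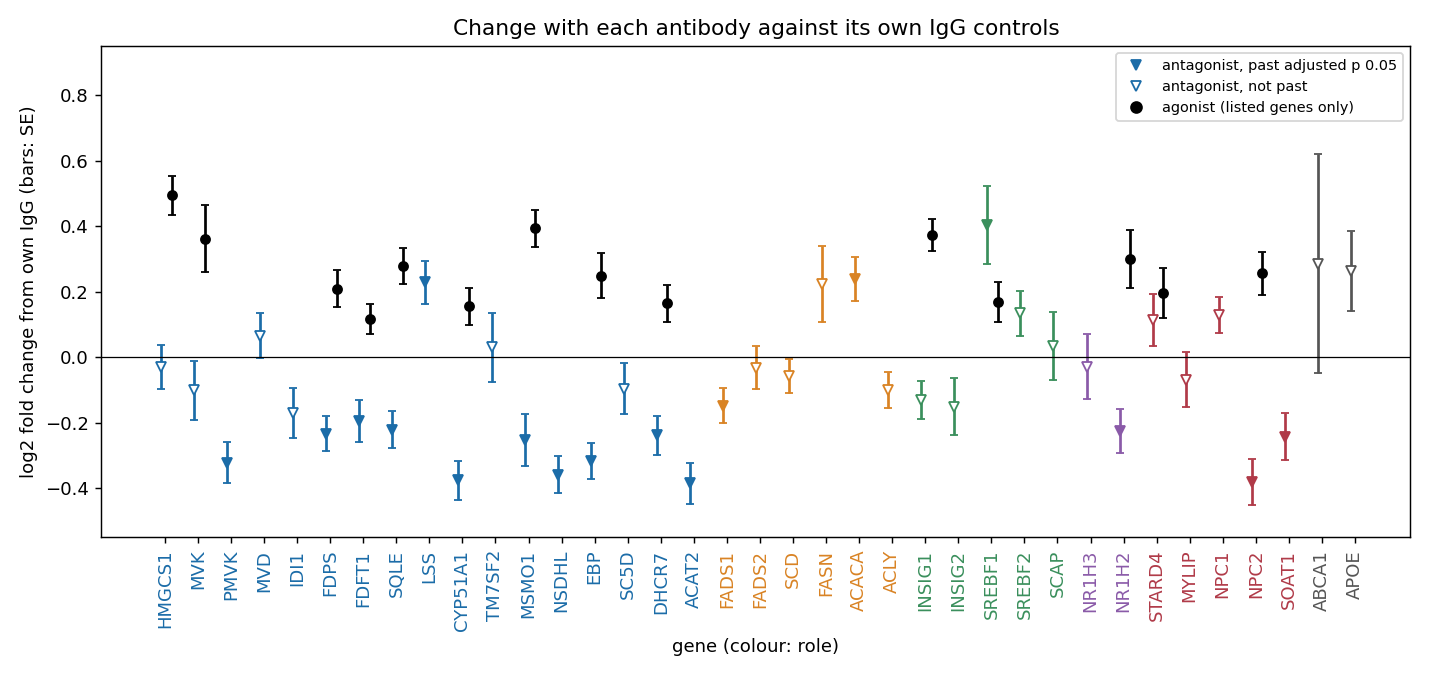
Log2 fold change from its own IgG group for each gene with the antagonist (triangles, filled where past adjusted p 0.05) and, for the 14 genes listed in set 2, with the agonist (black circles) with bars for SE. The agonist circles all lie above zero, between 0.12 and 0.49, whereas 17 of the 37 antagonist triangles are filled, 14 of them below zero.

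The agonist table listed 14 of the 40 genes: 9 of sterol synthesis, INSIG1 and SREBF1, NR1H2, and the transport genes STARD4 and NPC2. No fatty acid synthesis or efflux gene of the 40 was among the 904. All 14 were higher with the agonist and passed at 0.05 over the 904 genes, where 55.6% of listed genes were called higher and 44.2% lower. Only 1 of the 904 did not pass, so a pass at 0.05 does not set these 14 apart from the rest of the list. Groups were separate in 13 of the 14 (92.9%), against 97.6% of all listed genes. The median log2 fold change of the 14 was 0.25, beside 0.19 over all listed genes. Since the list was chosen on these libraries, these calls are not independent evidence of a rise. Values are TMM-scaled CPM of the listed counts and cannot be set against set 1 levels.

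HMGCS1, which did not pass with the antagonist, had the largest agonist difference of the 14, with 1147, 1080 and 1074 CPM for IgG and 1450, 1610 and 1588 for the agonist (0.49 ± 0.06, adjusted p = 0.000104). MSMO1 followed with 1188, 1239 and 1105 CPM for IgG and 1570, 1520 and 1547 for the agonist (0.39 ± 0.06, adjusted p = 0.000199). INSIG1 had 2318, 2314 and 2366 CPM for IgG and 2965, 3082 and 3016 for the agonist (0.37 ± 0.05, adjusted p = 0.00017). In these genes every agonist library was above every IgG library by more than the range within a group. MVK, the mevalonate kinase, had 97.2, 104 and 103 CPM for IgG and 136, 132 and 123 for the agonist (0.36 ± 0.10, adjusted p = 0.00518). SQLE had 1735, 1651 and 1623 CPM for IgG and 1913, 2103 and 2062 for the agonist (0.28 ± 0.06, adjusted p = 0.000733). These 2 were separate as well.

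Smaller differences were listed for the other sterol enzymes. EBP had 1285, 1246 and 1111 CPM for IgG and 1563, 1378 and 1387 for the agonist (0.25 ± 0.07, adjusted p = 0.00462). FDPS had 1282, 1337 and 1350 CPM for IgG and 1613, 1519 and 1455 for the agonist (0.21 ± 0.06, adjusted p = 0.00383). In both, the first agonist library, which stood apart from the other agonist libraries, was highest. DHCR7 had 754, 788 and 773 CPM for IgG and 894, 861 and 838 for the agonist (0.16 ± 0.06, adjusted p = 0.0135). CYP51A1 had 659, 674 and 681 CPM for IgG and 747, 751 and 743 for the agonist (0.15 ± 0.06, adjusted p = 0.0173). FDFT1 had 5567, 5350 and 5192 CPM for IgG and 5967, 5737 and 5755 for the agonist (0.12 ± 0.05, adjusted p = 0.028). These enzymes had separate groups, and FDFT1 lay at the lower edge of the listed rises.

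Outside sterol synthesis, NR1H2 had 371, 399.7 and 341 CPM for IgG and 505, 436 and 426 for the agonist (0.30 ± 0.09, adjusted p = 0.0058). NPC2 had 1461, 1346 and 1393 CPM for IgG and 1839, 1600.4 and 1576 for the agonist (0.26 ± 0.07, adjusted p = 0.00288). The first agonist library was highest for both, and without it NPC2 stood at 0.18. SREBF1 had 951, 1027 and 950 CPM for IgG and 1168, 1056 and 1063 for the agonist (0.17 ± 0.06, adjusted p = 0.0187), with groups just separate. STARD4 had 1024, 969 and 929 CPM for IgG and 978, 1208 and 1162 for the agonist (0.20 ± 0.08, adjusted p = 0.0243). It was the 1 gene of the 14 whose groups overlapped, and its lowest agonist library was the first. Without that library all 14 were still called higher. With DESeq2 size factors, which place zero elsewhere, 8 of the 14 passed, 5 of them sterol synthesis genes, and with length and GC trends removed 8 were higher and FDPS lower (-0.11).

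**Figure D3:**
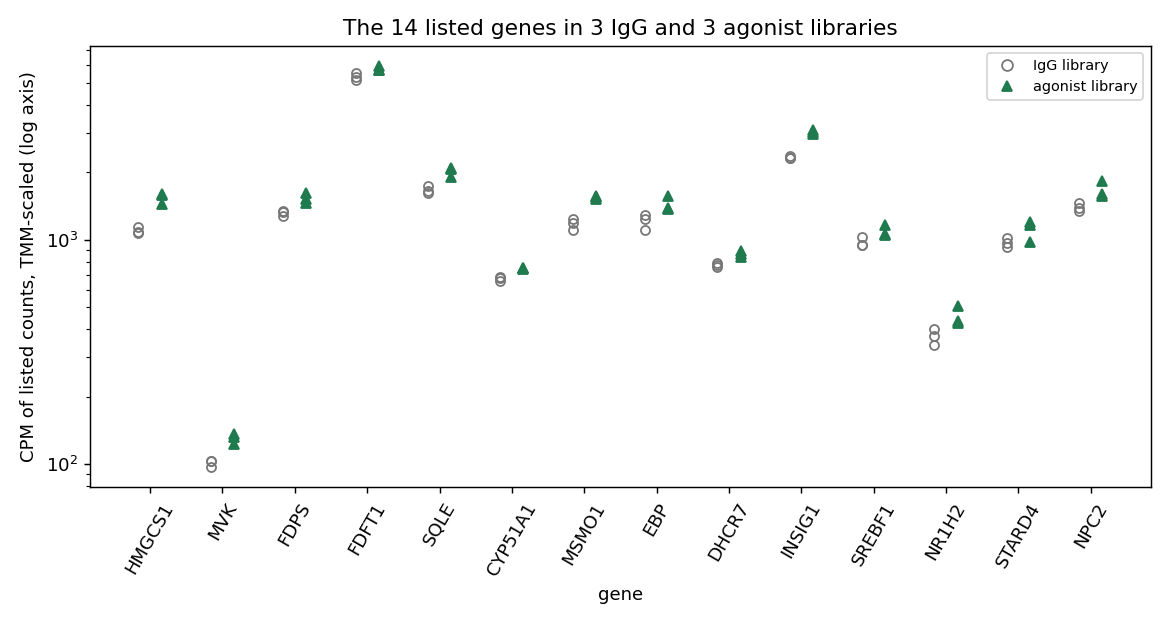
TMM-scaled CPM of listed counts on a log axis for the 14 genes listed in set 2, in 3 IgG libraries (open circles) and 3 agonist libraries (green triangles). Triangles lie above all circles for 13 genes, and overlap them for STARD4. Groups were separate in 97.6% of all 904 listed genes, so separation does not set these genes apart.

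Whether the change with the agonist differed from the change with the antagonist was tested as the interaction of set and treatment over 900 shared genes. Of the 14 genes 12 passed, all with the higher change for the agonist, where 29.7% of shared genes were called in that direction. Since all 14 were in the set 2 table as higher, this direction was favoured by how that table was made, and among the 502 shared genes listed as higher with the agonist 52.6% were called so. The largest differences were those of MSMO1 (0.65 ± 0.10, adjusted p = 8.63e-05), NPC2 (0.64 ± 0.10, adjusted p = 8.72e-05) and EBP (0.57 ± 0.09, adjusted p = 7.58e-05). They are sterol enzymes and a lysosomal cholesterol carrier. CYP51A1 (0.53 ± 0.08), NR1H2 (0.52 ± 0.12), HMGCS1 (0.52 ± 0.09), INSIG1 (0.51 ± 0.07) and SQLE (0.50 ± 0.07) came next. MVK (0.46 ± 0.14), FDPS (0.44 ± 0.07), DHCR7 (0.40 ± 0.08) and FDFT1 (0.31 ± 0.08) were smaller, and the adjusted p of the 12 was between 3.13e-05 for INSIG1 and 0.010 for MVK. Of the 12, 11 passed in the same direction in all 19 alternative settings. The exception was FDPS, which with length and GC trends removed stood at 0.07 and did not pass. There EBP was at 0.26, DHCR7 at 0.27, NR1H2 at 0.24, MSMO1 at 0.40 and FDFT1 at 0.52. SREBF1, which had risen with the antagonist and was listed as higher with the agonist, differed by -0.24 ± 0.14 (adjusted p = 0.146), and STARD4 by 0.08 ± 0.12 (adjusted p = 0.556). The set 2 table was selected and the zero of that set is uncertain, so that neither the count nor the size of these differences is independent evidence.

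Ratios of read counts between 2 genes of the same library need no scaling, and, besides LSS over CYP51A1 above, 3 such pairs were chosen after their values were seen. SREBF1 over INSIG1 was 0.329, 0.4002 and 0.440 in the IgG libraries of set 1 and 0.574, 0.554 and 0.573 with the antagonist. In set 2 it was 0.410, 0.444 and 0.402 with IgG and 0.394, 0.343 and 0.353 with the agonist. The antagonist libraries were above, and the agonist libraries below, every library of their own IgG group, and the 2 IgG groups overlapped. HMGCS1 over CYP51A1 was 1.05, 1.02 and 0.994 with IgG and 1.25, 1.34 and 1.31 with the antagonist. In set 2 it was 1.74, 1.60 and 1.58 with IgG and 1.94, 2.14 and 2.14 with the agonist. Here both antibodies gave higher ratios than their own IgG, and the IgG libraries of set 2 lay above even the antagonist libraries of set 1. NPC2 over STARD4 was 2.61, 2.49 and 2.64 with IgG and 1.84, 1.74 and 1.93 with the antagonist, and in set 2 was 1.43, 1.39 and 1.499 with IgG and 1.88, 1.33 and 1.36 with the agonist. The agonist groups overlapped in this pair. The IgG libraries of the sets thus did not overlap in the last 2 of these pairs, and set, culture and processing cannot be told apart.

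**Figure D4:**
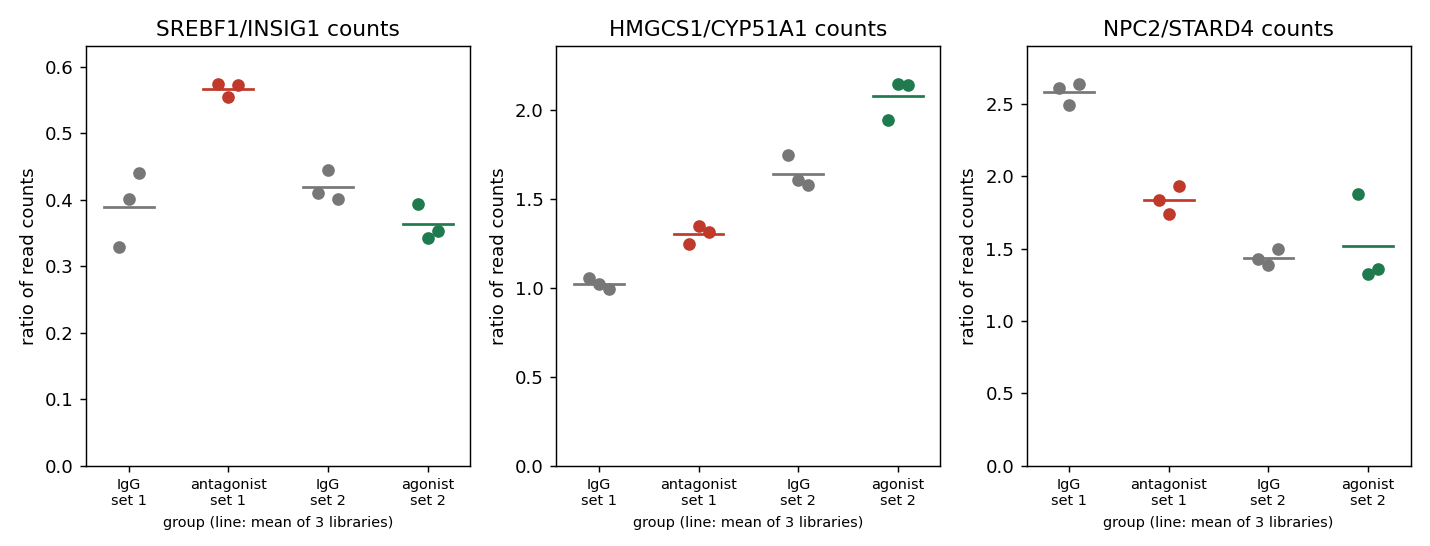
Ratio of read counts of SREBF1 to INSIG1, HMGCS1 to CYP51A1 and NPC2 to STARD4 in each library of the 4 groups, with the mean of 3 libraries as a line. SREBF1 to INSIG1 is highest in the antagonist libraries (0.554 to 0.574), and HMGCS1 to CYP51A1 in the agonist libraries (1.94 to 2.14).

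Transcript length went along with the antagonist changes. Spearman's rho between log2 fold change and summed exon length was 0.472 over the 37 genes and 0.223 over 13457 tested genes with a length, and with exon GC content 0.321 and 0.280. Genes are not independent replicates and share libraries, so these are descriptions. The 14 genes that fell had a median exon length of 2612.5 bases, the 3 that rose 5373 bases and the 20 that did not pass 3591 bases. With smooth length and GC trends removed from each library, the calls of LSS (0.08), ACACA (0.10) and MSMO1 (-0.04) were lost, CYP51A1 stood at -0.25, NPC2 at -0.25, SQLE at -0.14 and SREBF1 at 0.23, and 17 genes fell and 3 rose. HMGCS1 then passed as higher (0.11, adjusted p = 0.0426) and SCAP as lower (-0.13, adjusted p = 0.0424), each on the other side of zero from its value with no correction. STARD4 also passed as higher there and MVK as lower, each on the same side of zero as before. Over the 13 alternatives the adjusted p of HMGCS1 ran up to 0.943 and that of SCAP up to 0.950. The part of length in the individual changes was not tested beyond this. In bulk RNA, fewer cells of a kind and less RNA per cell cannot be told apart.

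**Figure D5:**
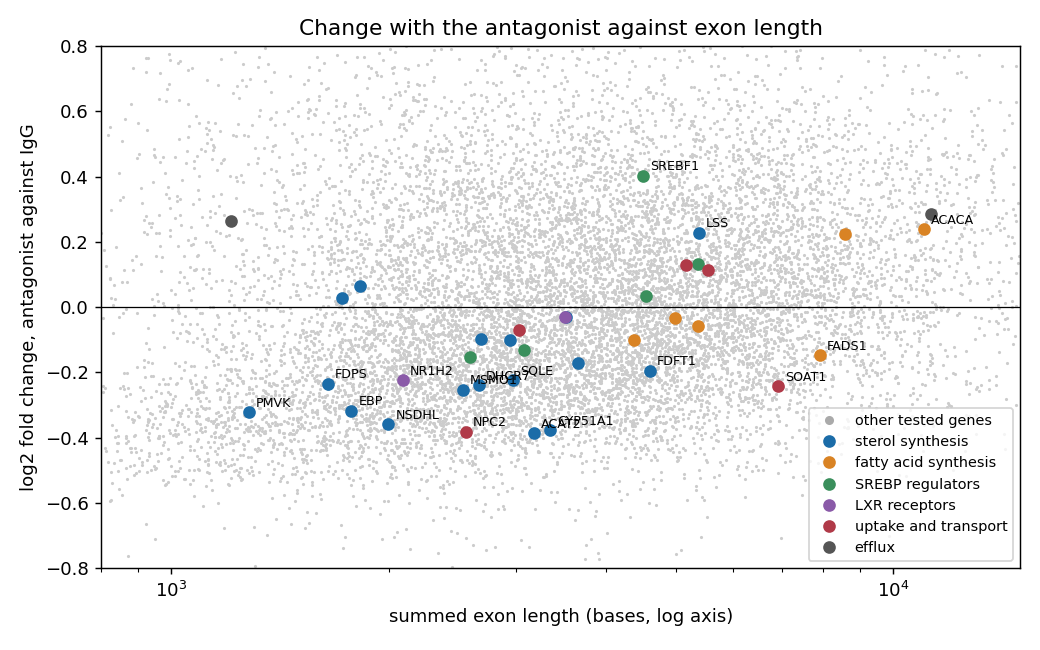
Log2 fold change with the antagonist against summed exon length (bases, log axis), with other tested genes in grey, the 37 genes coloured by role and those past adjusted p 0.05 named. The 14 named genes below zero have a median length of 2612.5 bases, and LSS, SREBF1 and ACACA, above zero, are longer than most of them.

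A further 81 genes of the same pathways were read in the same way, of which 68 were tested with the antagonist. Of these 22 fell and 11 rose, that is 32.4% lower and 16.2% higher, beside 20.5% and 15.6% of all tested genes, and the median change was -0.12 (log2). In the list of synthesis and related genes, not all of which act in sterol or fatty acid synthesis itself, 11 of 21 fell (52.4%) and 1 rose. ACAT1, the mitochondrial acetoacetyl-CoA thiolase (-0.43 ± 0.07, adjusted p = 0.000966), the elongase ELOVL1 (-0.29 ± 0.07, adjusted p = 0.00436) and the sterol scaffold protein ERG28 (-0.33 ± 0.07, adjusted p = 0.00477) fell. ACACB, the mitochondrial acetyl-CoA carboxylase, rose like ACACA, from 69.9, 76.9 and 71.4 CPM to 99.98, 97.7 and 99.3 (0.44 ± 0.06, adjusted p = 0.000343).

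Among 15 tested regulators 2 fell and 2 rose (13.3% each), below the shares over all tested genes in both directions. RNF139 (-0.29 ± 0.08, adjusted p = 0.014), a ubiquitin ligase of the endoplasmic reticulum, fell, while the glucose-responsive factor MLXIP rose (0.45 ± 0.11, adjusted p = 0.0067). MLXIP had 29.3, 39.3 and 37.7 CPM with IgG and 52.5, 49.0 and 43.7 with the antagonist. Its groups were separate, with the first IgG library lowest.

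Of 25 tested uptake and transport genes 7 fell (28%) and 5 rose (20%), near the 20.5% and 15.6% over all tested genes. The receptor chaperone LRPAP1 (-0.33 ± 0.05, adjusted p = 0.000781) and NUS1, which binds NPC2 and is a subunit of the dolichol-forming enzyme (-0.35 ± 0.07, adjusted p = 0.00257), fell, whereas the sterol transporter GRAMD1B (0.34 ± 0.06, adjusted p = 0.00162) and the lipoprotein receptor LRP8 (0.30 ± 0.06, adjusted p = 0.00195) rose. Of 7 tested efflux and related genes 3 rose and 2 fell. ABCA7 (0.54 ± 0.08, adjusted p = 0.000699), ABCA2 (0.69 ± 0.12, adjusted p = 0.000957) and ABCA3 (0.22 ± 0.08, adjusted p = 0.0398), lipid transporters of the ABCA1 family, rose, and TSPO, an outer mitochondrial membrane protein that binds cholesterol, fell (-0.33 ± 0.07, adjusted p = 0.00305). With length and GC trends removed ABCA3 stood at 0.0066. The calls of ABCA3 and RNF139 were also lost in other alternatives.

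Of the 81 further genes 5 were listed with the agonist, 4 as higher and 1 as lower. Over all listed genes 55.6% were called higher and 44.2% lower, so these calls do not set the 5 apart. The acetyl-CoA synthetase ACSS2 (0.33 ± 0.08, adjusted p = 0.00167), the fatty acid and lipoprotein scavenger receptor CD36 (0.58 ± 0.09, adjusted p = 0.000218), the late endosomal sterol transporter STARD3 (0.26 ± 0.07, adjusted p = 0.00346) and ABCA7 (0.26 ± 0.07, adjusted p = 0.00491) were listed as higher. CD36 had 186, 174 and 204 CPM of listed counts for IgG and 299.6, 271 and 275 for the agonist, without overlap. ACSS2 with the antagonist was at 0.02 ± 0.05 (adjusted p = 0.821), STARD3 at 0.11 ± 0.06 (adjusted p = 0.172) and CD36 at 0.18 ± 0.28 (adjusted p = 0.657). CD36 was scarcely counted in set 1, with 37, 22 and 28 reads for IgG and 31, 25 and 46 for the antagonist. A change of moderate size could not be seen there. The IgG libraries of set 2 held 615, 487 and 650 CD36 reads, and the reason for this difference between the sets was not tested.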

How the data were processed

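RNA sequencing libraries of U937 cells were analysed from 2 tables of whole-number read counts per gene as the authors deposited them, 1 per set and not normalized. Per the submitters' processing notes, HISAT2, Cufflinks and the hg38 build were used. Their versions, the counting program, the gene models and whether strand was used are not given in the sources. Where strand is ignored, antisense partners share reads, and genes with near-identical copies may have been split. Columns carry a name for their group with no replicate number, so each was assigned to a group and not to a replicate. In set 1, 570 of 28395 rows had no symbol (0.0678% to 0.105% of counts) and were left out.

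The test was edgeR 4.0.16 (R 4.3.3), with filterByExpr (minimum count 10, minimum total 15), TMM, a robust quasi-likelihood fit and Benjamini-Hochberg adjustment at 0.05 over 13778 genes of set 1, 904 of set 2 and, for the interaction of set and treatment with each set scaled alone, 900 shared genes. SE is the size of the log2 fold change over the root of F. Genes below the filter were compared by an exact binomial test of summed counts with 95% intervals that cover counting error only. Spread between 3 libraries limits precision. Alternatives were other scalings, DESeq2 1.42.0, no filter or a stricter one (5 CPM in 3 libraries), a non-robust fit, removal of length and GC trends (lowess span 0.3), each library left out and another zero for set 2. The code was tested on simulated data. Exon lengths, GC content and overlaps are from GENCODE v29, which may not be the authors' annotation; coordinates and promoters are from RefSeq GRCh38.p14, of each gene with several start sites the window farthest upstream. Plots used Python 3.11.15, numpy 2.4.6, pandas 2.3.3 and matplotlib 3.10.9.

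The genes, roles, lists and tests were chosen with earlier results of these data known. Values per library are given for genes past the threshold in either set, for SREBP and LXR regulators and for efflux genes; of each list of other pathway genes, up to 4 with the smallest adjusted p and those listed in set 2 are named, except for a few that are not reported here.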

Additional observations from a re-analysis of the deposited data

How the results depend on the processing

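With the antagonist, where 17 of the 37 tested genes passed, the count was between 15 and 20 under the other scalings, filters, tests and trend removal. Leaving out 1 library gave between 7 and 19. Without IgG library 2 it was 10, without antagonist library 3 it was 10 and without antagonist library 1 it was 7. Of the 17, 7 passed in all 13 alternatives. Over all genes, the share of higher calls moved from 43.1% to 65.4% with library totals, under which 7 of the 40 genes rose and 8 fell. With length and GC trends removed SCAP went to -0.13 and HMGCS1 to 0.11 with the antagonist, and with the agonist DHCR7 went to -0.031, FDPS to -0.114, NR1H2 to -0.041 and STARD3 to -0.043; the cause was not tested.

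With the agonist, 8 of the 14 genes passed with DESeq2 size factors, 8 with the DESeq2 Wald test and 9 with length and GC trends removed, and between 11 and 14 with 1 library left out. The share of higher calls over all listed genes moved from 55.7% to 44.2% with DESeq2 size factors. With zero placed midway between the listed changes nearest to it, a setting chosen after seeing the data, all 14 passed. The count of genes whose change differed between the antibodies was between 11 and 13 in 19 alternatives. It was 11 with length and GC trends removed, a setting added after seeing the data, and a stricter filter was not run for it; where it was 13 the added gene was SREBF1. DESeq2 size factors moved the median difference over shared genes from 0.03 to -0.08, and relative to that median the 12 stayed higher. For HSD17B7, ELOVL6 and ABCG1, scaling the totals by TMM moved the exact two-sided p to 0.617, 0.334 and 0.182. No paired analysis was possible because the columns carry no replicate numbers, and the planned replicate block was not run.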
